A study of Mus musculus with 4 samples.

Results

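Mouse osteoblasts, the cells that build bone matrix, were held in insulin for 24 h or for 12 h, and the gene expression of the later time was set against that of the earlier one. The comparison uses 2 of the 4 arrays of the series, those labelled insulin 24 h and insulin 12 h, and the 6 h insulin array is given beside them to show where each gene had been. Cells of all groups lacked the IGF-1 receptor per the growth protocol, while the genotype entry reads IGF-1 null, and the sources used here do not settle which is meant. The cultures were grown to confluence and starved of serum. Insulin was then added at 10 nM and left for 6, 12 or 24 h; the array labelled control carries the time 0 h. Each group is 1 array, so no difference has a replicate check, an error or a p-value. The number of arrays limits the precision. The labels do not say whether the cells are a clone, a line or a primary culture, and no untreated array at 12 or 24 h was analysed here, so insulin and time in culture cannot be told apart. The 0 h array is not used as a reference. Between it and the 24 h array 3830 genes lay at least 1.5-fold apart, and Eif2s3y, encoded on the Y chromosome, stood at 12.2 on the 0 h array against 295, 305 and 326 on the 6, 12 and 24 h arrays. Xist, the transcript of the inactive X chromosome, stood at 109 against 1636, 1278 and 1463.

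Values are intensities, which cannot be compared in level between genes because each probe set binds with its own strength. The difference is log2 intensity at 24 h minus log2 intensity at 12 h. Each gene is read from 1 probe set, the one with the highest mean log2 over the 4 arrays, and was kept when that mean was at or above 66.2 as an intensity, the median over the non-control probe sets. This left 11661 of 18193 named genes. The gene just inside this limit was Spry4, with a mean intensity of 66.171 and a log2 difference of 0.09, and the gene just outside was Ap3b2, with 66.163 and -0.10. The median intensities of the 12 h and 24 h arrays were 64.97 and 65.57. The 18 bacterial and phage hybridisation controls differed by -0.18 to 0.10 on the log2 scale with a median of -0.02. The ratio of 3′ to 5′ signal, a measure of RNA and labelling quality, was 1.41 and 1.39 for Actb at 12 and 24 h and 0.995 and 1.03 for Gapdh. Of 9 osteoblast markers 6 had a probe set for a single gene symbol, and all 6 were above the limit. Col1a1, which encodes a type I collagen chain, had intensities of 21001, 23827 and 23754 at 6, 12 and 24 h, and Ibsp, which encodes bone sialoprotein, had 8849, 11706 and 13147. In this order, 6, 12 and 24 h, the values of all genes below are given.

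Insulin signals through its receptor and the insulin receptor substrates to the kinases PI 3-kinase and Akt and to ERK. In osteoblasts it is known to promote survival, growth and the making of bone matrix. A proliferating culture passes through S phase, when DNA is copied, and mitosis, when it is divided, and each phase has its own set of genes that are transcribed in waves. Interferon-stimulated genes are an antiviral set that many cells keep at a low level without infection.

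The 24 h and 12 h arrays were close to each other over most genes. Of the 11661 genes 92.9% lay within 1.2-fold, 90% of the differences ran from -0.24 to 0.23 on the log2 scale, and the median was -0.03. By any amount 41.4% of genes were higher and 58.4% lower at 24 h. At least 1.5-fold higher were 12 genes (0.103%) and at least 1.5-fold lower another 12 (0.103%). With a loess curve on brightness removed these counts were 15 and 7. At least 1.2-fold higher were 418 genes (3.58%) and at least 1.2-fold lower 405 (3.47%), against 520 and 298 with the loess curve removed. A single gene, Cenpf, reached 2-fold. Differences were wider among dim genes: the standard deviation over genes was 0.17 among the 3887 dimmest genes and 0.12 among the 3887 brightest.

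**Figure D1:**
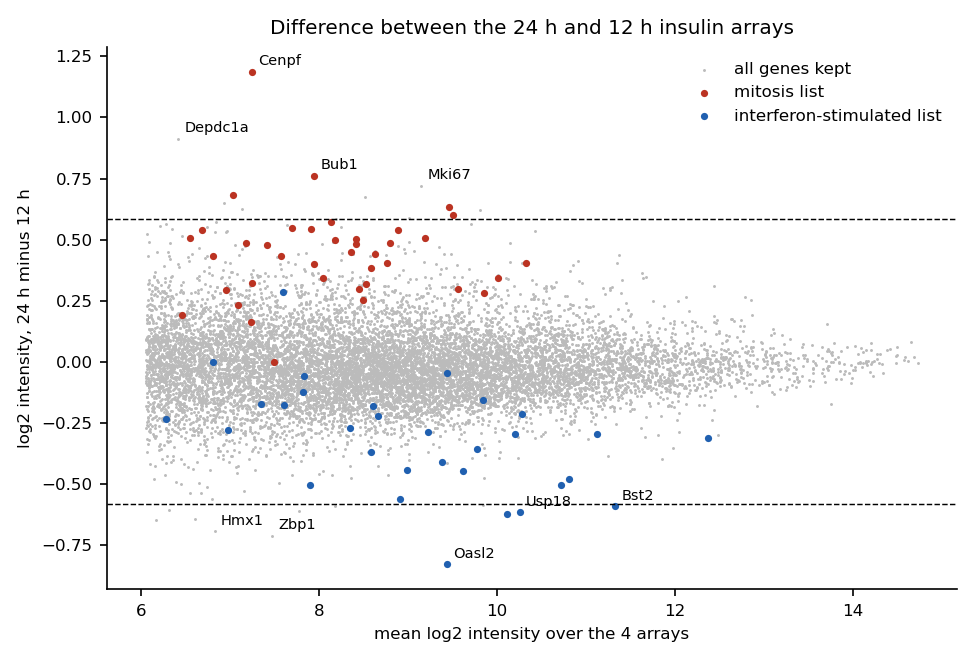
Log2 intensity at 24 h minus 12 h for the 11661 genes kept (vertical axis) against the mean log2 intensity over the 4 arrays (horizontal axis), 1 point per gene, with mitosis genes in red, interferon-stimulated genes in blue and dashed lines at 1.5-fold. Most points lie near 0, the mitosis genes lie above it and the interferon-stimulated genes below it, with Cenpf at 1.19 and Oasl2 at -0.83.

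Of the 12 genes at least 1.5-fold higher 5 were members of the mitosis list, which holds 39 of the 11661 genes kept. Cenpf, a kinetochore protein of mitotic cells, had intensities of 173, 91.0 and 207, which is 2.28-fold higher at 24 h than at 12 h. Of its 3 insulin values the 12 h one was the lowest and the 24 h one the highest. Depdc1a, a gene expressed in dividing cells, had 75.5, 37.7 and 70.9, and was 1.88-fold higher, although its 12 h value lay below the brightness limit. Bub1, a kinase of the spindle checkpoint, had 267, 138 and 234 and was 1.7-fold higher. Both returned at 24 h to a little under their 6 h values. Mki67, the proliferation marker Ki-67, had 525, 365 and 601 and was 1.65-fold higher. Cdkn3, a phosphatase of cyclin-dependent kinases, had 178, 93.1 and 149 and was 1.6-fold higher. Sgo2a, a shugoshin that guards cohesion between sister chromatids, had 128, 80.2 and 126, and Aspm, a spindle pole protein, had 135, 93.5 and 144. In each of them 12 h was the low array.

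Others among these 15 genes were Top2a, the topoisomerase that untangles DNA, with 641, 466 and 724, and Anln, an actin-binding protein of the cleavage furrow, with 731, 444 and 672. Pclaf, which binds the replication clamp PCNA, had 933, 554 and 852, and the chromatin protein gene Hmgb3 had 305, 201 and 301. These 4 genes were 1.55-fold, 1.52-fold, 1.54-fold and 1.499-fold higher at 24 h than at 12 h, so Hmgb3 lay just under 1.5-fold. Just above it was D17H6S56E-5, outside the rule for names, with 586, 345 and 517. The centromere gene Cenpp had 112, 81.3 and 121 and the spindle gene Nusap1 269, 191 and 283. Nipbl, which loads cohesin onto chromatin, had 666, 612 and 905; its 6 and 12 h values were close and 24 h was 1.48-fold above 12 h. A different kind of gene was Mcpt8, a serine protease of the mast cell protease family, with 1262, 509 and 813, 1.6-fold higher at 24 h than at 12 h and still below its 6 h value. When a gene's probe sets were averaged, the log2 difference fell under 1.2-fold for Bub1 (0.24 in place of 0.76) and Top2a (0.20 in place of 0.63). It also did for Pclaf (0.14 in place of 0.62) and Nusap1 (0.25 in place of 0.57). Here and below the average also takes in probe sets under the brightness limit. Bub1, Pclaf and Nusap1 had no other probe set above that limit.

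Of the 12 genes at least 1.5-fold lower 4 were members of the interferon-stimulated list, which holds 31 of the 11661 genes kept. Oasl2, an interferon-induced protein related to oligoadenylate synthetase, had 491, 567 and 319 and was 1.78-fold lower at 24 h than at 12 h. Zbp1, a sensor of Z-form nucleic acids outside the list, had 149.9, 153 and 93.5 and was 1.64-fold lower, but its log2 difference was -0.23 in place of -0.71 with suffixed probe sets left out. In both the 6 and 12 h values were near each other and 24 h was the low array. Ifi27l2a had 517, 669 and 434, Usp18, the protease that removes the ISG15 tag and restrains interferon signalling, had 1195, 1077 and 701, and Bst2, the virus-tethering protein tetherin, had 2128, 2226 and 1475. Gbp3, an interferon-induced guanylate-binding GTPase, had 365, 387 and 262. These 4 genes were 1.54-fold, 1.54-fold, 1.51-fold and 1.48-fold lower at 24 h than at 12 h.

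In the remaining 9 of these 15 genes the 12 h value was the highest of the 3. It was also the highest in Oasl2, Zbp1, Ifi27l2a, Bst2 and Gbp3 above, but not in Usp18. Hmx1, a homeobox transcription factor, had 158, 198 and 122 and was 1.62-fold lower at 24 h. Scube2, a secreted protein that releases Hedgehog, had 73.1, 126 and 80.3, and Scn3b, a subunit of voltage-gated sodium channels, had 106, 169 and 108. Plscr2, a phospholipid scramblase family member, had 240.2, 342 and 224. These 3 genes stood highest at 12 h and were back near their 6 h values at 24 h, 1.57-fold, 1.56-fold and 1.53-fold below 12 h. Aldh1a1, which makes retinoic acid, had 466, 590.1 and 392, the elastic fibre gene Mfap4 had 1439, 1943 and 1294 and the carboxypeptidase gene Cpz had 119.7, 158 and 103. Ptpn18, a tyrosine phosphatase, had 114, 168 and 113, and Abhd11os, a transcript antisense to Abhd11, had 104, 157 and 108. Of the genes at least 1.3-fold apart by the chosen probe set, 60 had another probe set above the limit. It pointed the same way for 36 of 38 higher genes and 19 of 22 lower genes, against 67.7% of all 5096 genes with such a probe set. Its differences were smaller, with a median of 0.20 against 0.44 for the higher genes and -0.27 against -0.41 for the lower ones.

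**Figure D2:**
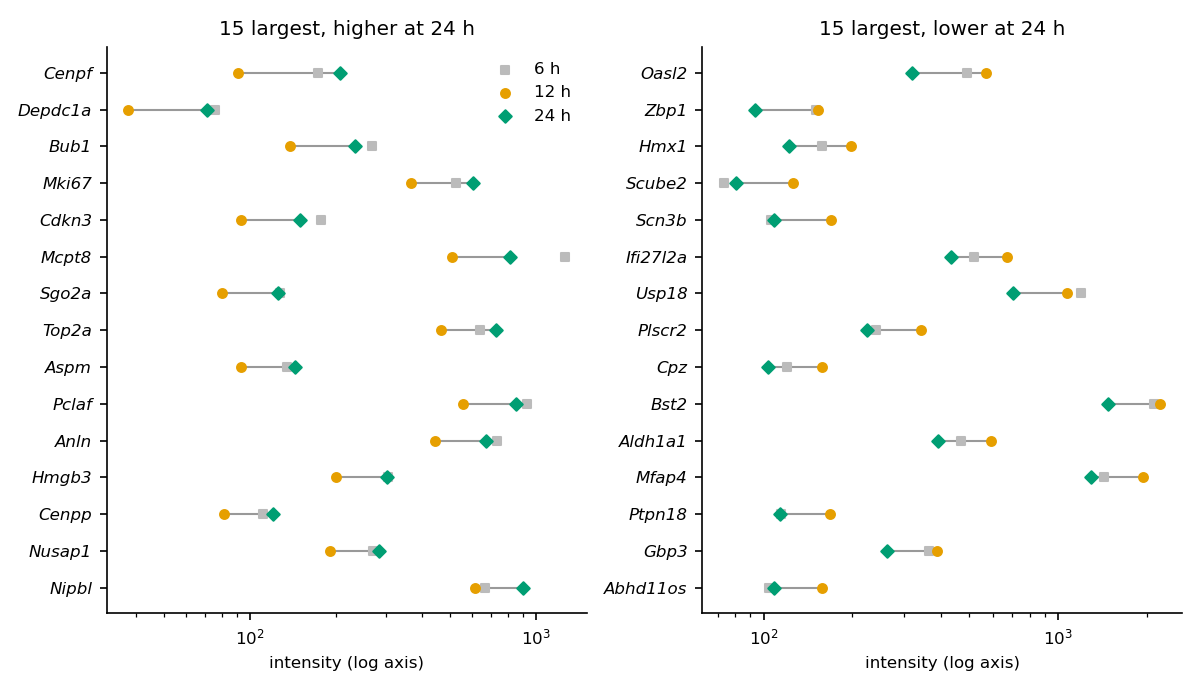
Intensities on a log axis at 6 h (grey squares), 12 h (orange circles) and 24 h (green diamonds) for the 15 named genes with the largest positive difference (left) and the 15 with the largest negative difference (right), 1 array per point, with a line joining 12 and 24 h. On the left the 12 h point is the lowest of the 3 in all 15 genes; on the right the 24 h point lies below 12 h and, for genes such as Oasl2 and Zbp1, also below 6 h.

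Genes of mitosis were higher at 24 h than at 12 h almost as a whole list. Of 39 members above the limit 34 stood at least 1.2-fold higher and none 1.2-fold lower, against 3.58% and 3.47% of all genes, and 38 were higher by any amount. The list's median difference was 0.44, against -0.03 over all genes. Between 6 and 12 h the same list had a median of -0.49, with 37 members at least 1.2-fold lower at 12 h (4.07% of all genes) and none higher (8.40%). Both differences share the 12 h array, so both rest on it. Set against 6 h instead, the 24 h values had a list median of -0.11, with 2 members at least 1.2-fold higher (7.19% of all genes) and none lower (3.91%). In a bulk sample, fewer dividing cells and less RNA per dividing cell cannot be told apart.

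The members span the steps of division. Ccna2 and Ccnb2, the cyclins that drive entry into mitosis, had 551, 365 and 519 and 505, 321 and 449, and their partner kinase Cdk1 had 917, 671 and 816. The mitotic kinases Plk1, Aurka and Aurkb had 374, 232 and 329, 369.5, 247 and 345 and 187, 116 and 162. In each the 12 h array was the lowest. Birc5, the survivin subunit of the chromosomal passenger complex, had 489.6, 301 and 438, and Cenpe, the motor that carries chromosomes to the spindle equator, had 218, 150.3 and 219. Cdc20, which activates the anaphase-promoting complex, had 1323, 941 and 1246, and Ube2c, its ubiquitin-conjugating enzyme, had 1042, 744 and 943. The 24 h values of these genes lay within 1.2-fold of 6 h. Foxm1, the transcription factor that drives many of these genes, had 178, 174 and 174 and was the sole member not higher at 24 h, with its other 2 probe sets above the limit pointing up.

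The promoters of the 4 mitosis genes farthest apart are shown because members of this list moved together and because promoters of mitotic genes are known for CCAAT boxes and for the cell cycle genes homology region, CHR. The genes were chosen after their values were seen. Each stretch is the 200 bases before the RefSeq transcription start in mouse assembly GRCm38.p6, written 5′ to 3′ on the strand of the gene. Capitals mark CCAAT or its reverse complement ATTGG, and TTTGAA or its reverse complement TTCAAA, the letters searched for the CHR.
Cenpf, chr1:189688087-189688286, minus strand: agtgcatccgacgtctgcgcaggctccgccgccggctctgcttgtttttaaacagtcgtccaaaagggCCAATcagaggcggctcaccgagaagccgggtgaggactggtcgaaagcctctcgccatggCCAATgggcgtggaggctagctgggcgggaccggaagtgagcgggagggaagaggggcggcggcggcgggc
Bub1, chr2:127831860-127832059, minus strand: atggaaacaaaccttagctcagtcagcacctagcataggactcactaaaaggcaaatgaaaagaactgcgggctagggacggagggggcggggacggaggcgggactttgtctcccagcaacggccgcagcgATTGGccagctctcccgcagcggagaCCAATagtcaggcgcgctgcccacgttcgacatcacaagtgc
Cdkn3, chr14:46760341-46760540, plus strand: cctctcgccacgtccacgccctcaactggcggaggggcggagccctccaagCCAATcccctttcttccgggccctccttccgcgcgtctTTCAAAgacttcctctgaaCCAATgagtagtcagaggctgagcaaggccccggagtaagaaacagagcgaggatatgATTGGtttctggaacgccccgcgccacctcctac
Top2a, chr11:99024190-99024389, minus strand: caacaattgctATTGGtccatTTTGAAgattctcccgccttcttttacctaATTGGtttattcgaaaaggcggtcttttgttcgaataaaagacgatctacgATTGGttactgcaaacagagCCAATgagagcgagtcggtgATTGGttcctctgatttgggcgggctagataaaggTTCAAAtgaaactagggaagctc
Every one of these 4 stretches holds CCAAT in either orientation, and those of Cdkn3 and Top2a also hold the CHR letters. In the 250 bases before the start, CCAAT on either strand was found in 24 of 33 list members with a promoter in the table, against 33.8% of all 32851 promoters and 40.4% of the 9425 kept genes with a promoter in the table. TTTGAA on either strand was found in 11 of 33, against 16.0% of all promoters and 12.6% of the kept genes. These are matches of letters and not sites.

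Genes of DNA replication and S phase were less far apart. Of 32 members 5 stood at least 1.2-fold higher at 24 h than at 12 h and none 1.2-fold lower. The shares of all genes were 3.58% and 3.47%. With averaged probe sets, or with suffixed ones left out, 3 members were 1.2-fold higher. The list median was 0.10, and 24 members were higher by any amount, against 41.4% of all genes. Between 6 and 12 h the median was -0.30 with 18 members at least 1.2-fold lower (4.07% of all genes). Between 6 and 24 h it was -0.18 with 12 lower (3.91% of all genes). Ccne2, the cyclin of S phase entry, had 136, 81.7 and 106, Tk1, the thymidine kinase, had 287, 181 and 235 and Pole, a catalytic subunit of a replicative polymerase, had 138, 104 and 133. The helicase subunit gene Mcm2 had 571, 449 and 543, while Mcm3 of the same hexamer had 308, 229 and 219 and Pcna, the replication clamp, had 3635, 2817 and 2909. So the first 4 were higher at 24 h than at 12 h, Mcm2 by less than 1.2-fold with averaged probe sets, and Mcm3 and Pcna remained near their 12 h values.

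**Figure D3:**
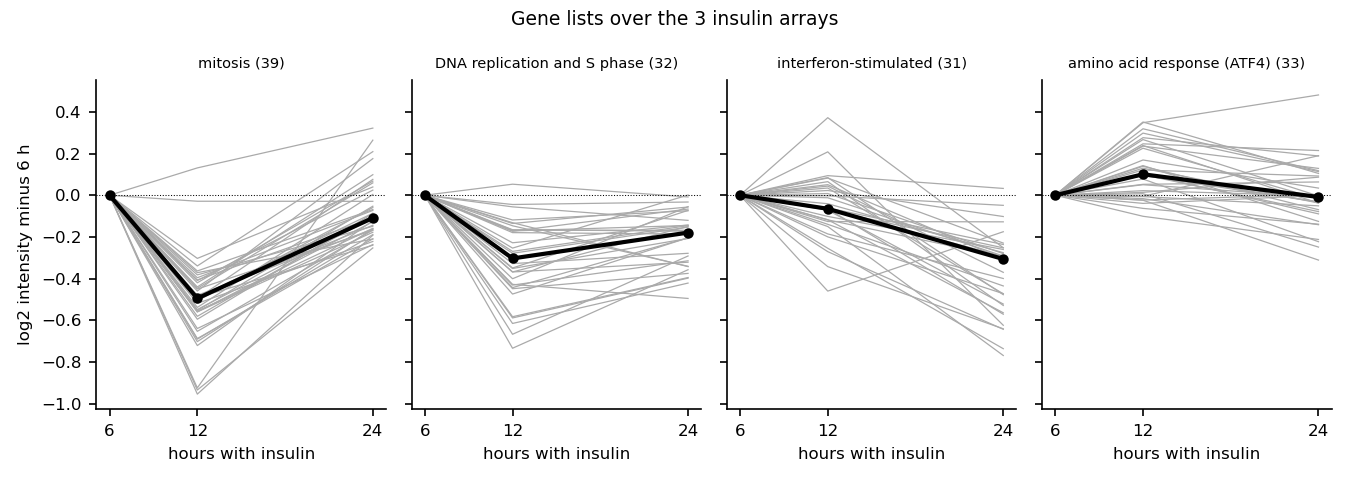
Log2 intensity minus the 6 h value (vertical axis) against hours with insulin (horizontal axis) for 4 gene lists, 1 grey line per gene above the limit and the median over genes in black, 1 array per time. The mitosis median is lowest at 12 h and near the 6 h level again at 24 h, while the interferon-stimulated median lies near 6 h at 12 h and is lowest at 24 h.

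Interferon-stimulated genes were lower at 24 h than at 12 h in 30 of 31 members by any amount, against 58.4% of all genes. At least 1.2-fold lower were 19 members and 1.2-fold higher 1, against 3.47% and 3.58% of all genes. The list median was -0.30. Unlike in the mitosis list, the 12 h array was near the 6 h array by the list median, which was -0.07 between them. Between these times 3 members were 1.2-fold lower (4.07% of all genes) and 1 higher (8.4%). Against 6 h, the 24 h values had a median of -0.31, with 21 members 1.2-fold lower (3.91% of all genes) and none higher (7.19%). So this lower level does not rest on the 12 h array, and both comparisons rest on the 24 h array.

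The list covers sensors, transcription factors and effectors. Among RNA sensors, Dhx58, which encodes LGP2, had 206, 211 and 149 and was 1.42-fold lower at 24 h than at 12 h, and Ifih1, which encodes MDA5, had 494, 471 and 403. Irf9 and Stat2, subunits of the transcription factor that interferon activates, had 665, 686 and 515 and 391, 324 and 250.3, and Irf7 had 301, 262 and 217. The 24 h array was the lowest of the 3 for all 5 genes. Among effectors, Ifit1 and Ifit3, which bind foreign RNA, had 1404, 1342 and 946 and 1437, 1205 and 863, and Oas1a, an oligoadenylate synthetase, had 619, 589 and 431. The GTPase genes Igtp and Irgm1 had 459, 424 and 311 and 1153, 1047 and 853. Members with little difference were Irf1 with 559, 558 and 540.3 and Ifit2 with 156, 167 and 159.6. Trim30a, a ubiquitin ligase family member, had 117, 85.2 and 104 and was the member higher at 24 h than at 12 h, and its other probe set above the limit was lower.

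The promoters of 4 interferon-stimulated genes are shown for the response element that binds the STAT and IRF factors. They are the list members farthest apart among those with a promoter in the RefSeq table, given as 200 bases before the start in GRCm38.p6, 5′ to 3′ on the strand of the gene. Capitals mark TTTC, any 2 bases and TTTC, or on the other strand GAAA, any 2 bases and GAAA, and overlapping matches run together. Gbp3 has 2 starts in the table, of which the first listed is shown.
Oasl2, chr5:114896734-114896933, plus strand: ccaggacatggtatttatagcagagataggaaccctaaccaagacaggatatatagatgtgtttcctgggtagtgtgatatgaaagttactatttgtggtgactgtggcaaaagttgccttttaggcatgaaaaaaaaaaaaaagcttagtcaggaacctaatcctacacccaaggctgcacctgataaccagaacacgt
Bst2, chr8:71537473-71537672, minus strand: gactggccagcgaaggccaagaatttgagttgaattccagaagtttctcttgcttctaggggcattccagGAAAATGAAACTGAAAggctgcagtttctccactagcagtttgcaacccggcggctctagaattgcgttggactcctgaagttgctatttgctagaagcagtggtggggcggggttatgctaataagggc
Gbp3, chr3:142559844-142560043, plus strand: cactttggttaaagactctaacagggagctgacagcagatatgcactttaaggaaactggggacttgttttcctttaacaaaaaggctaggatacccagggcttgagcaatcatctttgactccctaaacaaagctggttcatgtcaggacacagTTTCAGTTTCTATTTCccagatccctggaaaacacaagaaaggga
Ifit1, chr19:34640689-34640888, plus strand: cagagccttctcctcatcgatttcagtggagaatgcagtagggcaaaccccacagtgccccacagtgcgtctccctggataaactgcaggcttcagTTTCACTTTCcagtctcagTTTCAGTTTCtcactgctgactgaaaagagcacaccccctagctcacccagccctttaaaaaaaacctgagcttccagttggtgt
Bst2, Gbp3 and Ifit1 each hold 2 matches of these letters in this stretch, overlapping in Bst2 and Gbp3 and separate in Ifit1. They are matches of letters and not sites. The Oasl2 stretch does not hold these letters. In the 250 bases before the start the letters were found in 11 of 24 list members with a promoter in the table, against 2.98% of all promoters and 2.96% of the kept genes with a promoter.

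Rebounds around the 12 h array were counted over all genes. A gene was counted when its 12 h value was at least 1.3-fold away from both the 6 h and the 24 h value on the same side. On the low side were 64 genes (0.549% of all) and on the high side 30 (0.257%). Since both steps of a rebound share the 12 h array, every rebound rests on a single 12 h array. Of the 64 genes low at 12 h, 25 were members of the mitosis list, which holds 39 of the 11661 genes kept. Cep55, an abscission protein outside the list, had 180.0, 116 and 171. The chemokine genes Ccl11 and Ppbp, with 241, 124 and 179 and 174, 99.3 and 146, had the same shape without a known part in division. So did Nop58, a core protein of ribosomal RNA methylation, with 527, 366 and 514.

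The genes high at 12 h were a mixed set that included secreted, matrix and membrane proteins, whose shares were not counted. Besides Scube2, Scn3b, Plscr2 and Mfap4 above, Chodl, a membrane lectin, had 264, 390.5 and 277, and Eln, the elastin gene, had 218, 288 and 219. Ptx3, a soluble pattern recognition protein, had 4313, 6071 and 4602, and Ccn3, a matricellular protein, had 2144, 2878 and 2191. Cebpd, a transcription factor of the acute phase and of early fat cell differentiation, had 2896, 4096 and 3135, with a log2 difference of -0.23 in place of -0.39 when probe sets were averaged. In these the 24 h value was within 1.2-fold of the 6 h value. Yipf2, a Golgi membrane protein, had 320.2, 466 and 335 and Acaa1b, a peroxisomal thiolase, 122, 189 and 139. Dimmer members of this group were Map2, a neuronal microtubule protein, with 67.0, 123 and 84.7, where the other probe set above the limit pointed the other way, and Taf3, a subunit of the general factor TFIID, with 67.7, 99.3 and 70.5.

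A smaller set of genes moved the same way at both steps. At least 1.3-fold higher at 12 h than at 6 h and again at 24 h than at 12 h were 10 genes (0.0858%), and none (0%) was lower at both steps. Omd, the bone proteoglycan osteomodulin, had 1614, 2432 and 3217, and Mef2c, a transcription factor active in cartilage and osteocytes, had 205, 315 and 418. Npnt, the integrin ligand nephronectin, had 524, 877 and 1187, and Mia, a secreted protein of cartilage, had 382, 627 and 851. Fabp4, the fatty acid carrier of fat cells and macrophages, had 1879, 2883 and 3834. Ramp1, a coreceptor for calcitonin gene-related peptide, had 119, 190.4 and 262, Entpd3, an ectonucleotidase, 77.7, 116 and 165, and Kng1, the kininogen gene, 86.9, 139 and 194. The chemokine gene Ccl12 had 92.1, 139 and 181 and the exchange factor gene Ngef 69.3, 98.4 and 133. For all 10 the 24 h array was the highest of the 3. With averaged probe sets the log2 difference between 12 and 24 h fell under 1.2-fold for Fabp4 (0.12), Ramp1 (0.19), Mef2c (0.23) and Npnt (0.23).

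Osteoblast and bone matrix genes were split in direction by any amount, and the members past 1.2-fold were all higher at 24 h. Of 16 list members 5 stood at least 1.2-fold higher at 24 h than at 12 h and none 1.2-fold lower, against 3.58% and 3.47% of all genes. The list median was 0.03, and it was just under 0 when probe sets with a suffix were left out. By any amount 8 members were higher and 8 lower, against 41.4% and 58.4% of all genes. Sp7, the transcription factor osterix, had 125, 161 and 213 and was 1.32-fold higher than at 12 h. Alpl, a phosphatase needed for mineral deposition, had 523, 919.7 and 1139.5 and was 1.24-fold higher. Ifitm5, a membrane protein of mineralising osteoblasts, had 302, 523 and 644, and Pth1r, the parathyroid hormone receptor, had 703, 1186 and 1444. For these 4 genes the order was 6 h, 12 h, 24 h from low to high. Col1a2 with 23219, 23933 and 24963 and Sparc, which encodes osteonectin, with 24482, 24979 and 24847 differed by less than 1.2-fold between 12 and 24 h. The highest intensities on the 12 and 24 h arrays were 27727 and 27644, so both genes lay near the top of the range. Tnfrsf11b, the decoy receptor osteoprotegerin, had 376, 579.9 and 652, while its other probe set above the limit had a log2 difference of -0.01. Tnfsf11, the ligand RANKL, lay below the brightness limit with 67.2, 78.9 and 81.1.

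Of 12 genes of osteocytes and mineralisation 3 stood at least 1.2-fold higher at 24 h than at 12 h and none 1.2-fold lower. The shares of all genes were 3.58% and 3.47%. With averaged probe sets 1 member of the list stood higher, and Phex (0.17) and Slc8a3 (0.12) fell under 1.2-fold. The list median was 0.17, and 10 members were higher by any amount, against 41.4% of all genes. Phex, an endopeptidase of phosphate control, had 223, 427 and 531, and Dmp1, a matrix phosphoprotein of osteocytes, had 1164, 2154 and 2645 with its other 2 probe sets also higher at 24 h. Slc8a3, a sodium-calcium exchanger, had 229, 344 and 427. These 3 genes stood lowest at 6 h and highest at 24 h. Ank, a pyrophosphate and ATP exporter, had a different course with 2593, 1900.3 and 2205, and Mepe, a phosphoglycoprotein of osteocytes, had 116, 155 and 142 and was the lower of the 2 members below 0 in difference. Sost, the Wnt inhibitor of mature osteocytes, lay below the brightness limit with 30.8, 36.6 and 33.8.

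Repressors of osteoblast differentiation contained 2 members past 1.2-fold, both lower at 24 h and both Twist genes. Twist1, a helix-loop-helix repressor of the bone factor Runx2, had 766, 1013 and 809, and its relative Twist2 had 361, 339 and 276. Twist1 was high at 12 h and back near 6 h, whereas Twist2 was lowest at 24 h. Of 15 members 2 were thus 1.2-fold lower and none higher, against 3.47% and 3.58% of all genes, and the list median was -0.04. Hes1, a Notch target, had 442, 433 and 384.

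Most cartilage and macrophage genes were slightly higher at 24 h than at 12 h. Against 3.58% of all genes at least 1.2-fold higher and 41.4% higher by any amount, 4 of 18 cartilage genes stood 1.2-fold higher, none 1.2-fold lower and 16 higher by any amount, with a median of 0.19. With the brightness limit at the 75th percentile 1 cartilage gene and no macrophage gene was 1.2-fold higher. Matn4, a matrilin of the matrix, had 1635, 2928 and 3611 and Col2a1, the type II collagen of cartilage, 3151, 4643 and 5209. Of 15 adipocyte genes 5 were 1.2-fold higher and none lower, 3 with averaged probe sets, with a median of 0.10 that turned to -0.05 with the brightness limit at the 75th percentile. Adipoq, the adipokine adiponectin, had 511, 885 and 1141 and Lpl, the lipoprotein lipase, 1492, 2394 and 3035. Both list medians were also above 0 between 6 and 12 h, at 0.33 and 0.22. Of 18 macrophage and osteoclast genes 4 were 1.2-fold higher, none was lower and 17 were higher by any amount, with a median of 0.18 after 0.40 between 6 and 12 h. The complement gene C1qa had 319, 494 and 606, the phagocyte marker Cd68 248, 317 and 382 and Lyz2, lysozyme of macrophages, 3565, 4354 and 4914.

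The summed intensities of the osteoblast, macrophage, adipocyte and cartilage marker sets were highest at 24 h, and those of the contractile and endothelial sets were not. Each sum is weighted towards its brightest probe sets, such as Col1a1 and Col1a2 for osteoblasts and Lyz2 for macrophages. For 9 macrophage and osteoclast markers the sum was 5319.8, 6681 and 7551, with Itgam, Ptprc and Calcr below the brightness limit. For 4 adipocyte markers it was 3989, 6346 and 8205, and for 6 cartilage markers 6524, 9986 and 11256. For 6 osteoblast markers the sum was 54419, 61732 and 64662. For 5 contractile markers it was 40966.5, 43172 and 40902, and of 5 endothelial markers 4 lay below the limit. The part of these other cell types in the results was not tested. None of the marker sums other than the contractile and endothelial ones (the latter 242, 207 and 221) had a turn at 12 h.

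**Figure D4:**
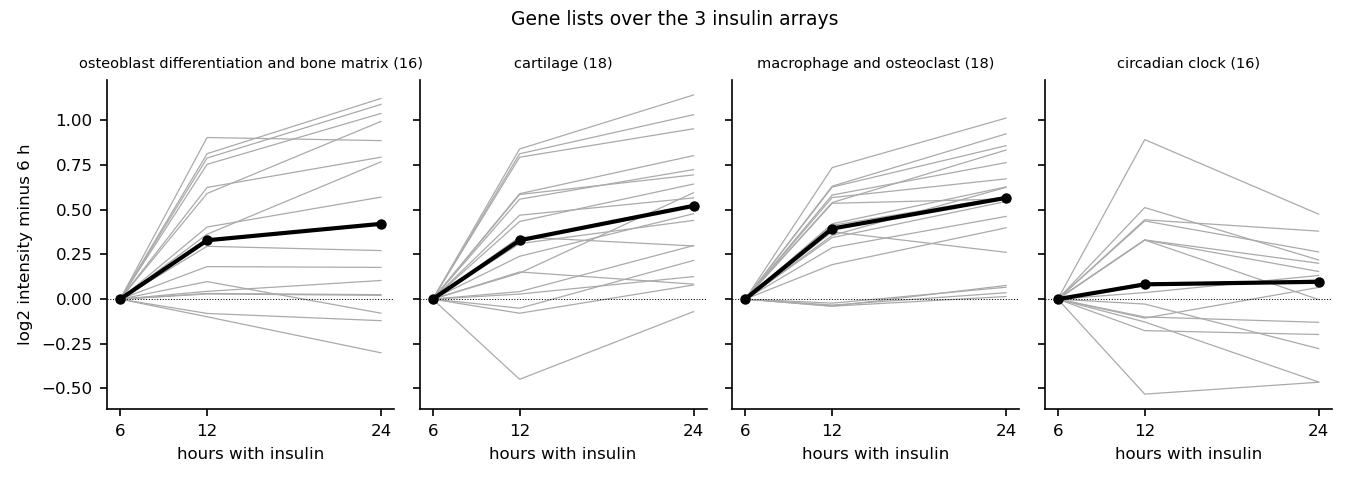
Log2 intensity minus the 6 h value (vertical axis) against hours with insulin (horizontal axis) for bone, cartilage, macrophage and osteoclast, and circadian clock genes, 1 grey line per gene above the limit and the median over genes in black, 1 array per time. The cartilage and macrophage medians are highest at 24 h, and clock genes include lines that stand high at 12 h.

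The BMP and TGF-beta list was mixed. Of its 27 members 5 were at least 1.2-fold lower and 1 higher at 24 h than at 12 h, against 3.47% and 3.58% of all genes, with a median of -0.05. With suffixed probe sets left out 3 were lower and 1 higher, with averaged probe sets 4 and 0, and after median centring 6 and 0. The 5 lower members were Bmp6, a BMP ligand, with 233, 243 and 186, and the 4 Id genes, singled out here after their values were seen, which encode inhibitors of helix-loop-helix factors and are known as BMP targets. Id1 had 720.4, 861 and 689.8, Id2 742, 956 and 795, Id3 1909, 2319.6 and 1896 and Id4 225, 274 and 216. Each Id gene stood highest at 12 h and was 1.25-fold, 1.2-fold, 1.22-fold and 1.26-fold lower at 24 h. Bmp4 had 1063, 1078 and 902 and Smad6, an inhibitory Smad that BMP induces, had 471, 508 and 447. The higher member was Ltbp1, which tethers latent TGF-beta to the matrix, with 1452, 1437 and 1738.

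Clock genes were lower at 24 h than at 12 h in 12 of 16 members, against 58.4% of all genes, with 4 at least 1.2-fold lower (3.47% of all genes), none 1.2-fold higher and a median of -0.10. With the brightness limit at the 75th percentile 1 was 1.2-fold lower. The circadian clock is a loop in which Arntl and Clock activate the Per and Cry genes and the output gene Dbp, whose products then act back on it. Dbp had 498, 925 and 693, Cry1 207, 189.7 and 150.3, Cry2 224, 282 and 224 and Per3 123, 175 and 143. Dbp, Cry2 and Per3 stood highest at 12 h, and Cry1 was lowest at 24 h. Arntl, in the opposite arm of the loop, had 455, 315 and 329, and Clock 401, 422 and 431. Nr1d1, the nuclear receptor that represses Arntl, had 204, 257 and 227 and Per1 had 162, 219 and 194. With 3 times no rhythm can be read.

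Genes of the amino acid response, which the transcription factor ATF4 drives, leaned to lower values at 24 h. Of 33 members 27 were lower by any amount, against 58.4% of all genes, and 5 were at least 1.2-fold lower (3.47% of all genes) and none 1.2-fold higher, with a median of -0.13. With a loess curve removed 1 member was 1.2-fold lower, and after quantile normalization 2 were; with averaged probe sets 3 were. The serine pathway genes Phgdh, Psat1 and Shmt2 had 3258, 3438 and 2792, 2259, 2270.2 and 1901 and 1447, 1423 and 1167. All other probe sets of these 3 genes above the limit, 7 in number, were lower as well. Asns, the asparagine synthetase, had 2774, 3338 and 2768, Chac1, which degrades glutathione, had 1008, 1189 and 982 and the amino acid transporter gene Slc7a5 1058, 1349.8 and 1138. Asns, Chac1 and Slc7a5 stood highest at 12 h and were near their 6 h values at 24 h. Against 6 h the list median at 24 h was -0.01. Slc38a2, another amino acid transporter, was the member highest in difference with 2378, 2370.0 and 2712.

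Genes of the insulin and IGF system gave single calls, beside 3.58% of all genes that were 1.2-fold higher and 3.47% lower. Of 26 insulin receptor signalling genes 1 was at least 1.2-fold higher and none lower, and the median was 0.00. Insr, the insulin receptor, had 181, 206 and 215, its substrates Irs1 and Irs2 had 5017, 5527 and 5279.5 and 86.6, 77.6 and 81.5, and the adaptor gene Grb10 had 5596, 5434 and 5438. Igf1r was the higher member with 259, 265 and 319. Its other 2 probe sets above the limit hardly differed, with log2 differences of 0.0004 and -0.01. With averaged probe sets the log2 difference of Igf1r was 0.08. Of 14 IGF ligands and binding proteins 1 was higher and 1 lower at 1.2-fold. These were Igfbp5 with 2916, 4338 and 5414 and Igfbp3 with 695, 968 and 769.6, and Igfbp5 was under 1.2-fold with averaged probe sets (0.17). Igf1 had 5532, 5983 and 6024, while its other 3 probe sets above the limit were all lower at 24 h, by log2 differences of -0.31, -0.26 and -0.07. Of 23 FoxO targets 2 were 1.2-fold higher and none lower, with a median of 0.07. Cdkn1b, the cell cycle inhibitor p27, had 346, 292 and 362 and Bcl2l11, the death factor BIM, 744, 576 and 725; both were low at 12 h. With averaged probe sets Cdkn1b (0.08) and Bcl2l11 (0.16) were under 1.2-fold. FoxO factors are switched off by insulin signalling in many cells.

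Immediate early, matrix and Wnt genes gave single genes and no common direction. Over all genes 3.58% were at least 1.2-fold higher and 3.47% lower. Fos had 340.4, 398 and 308 and Myc 361, 403 and 332, the only 2 of 26 immediate early genes past 1.2-fold, both lower at 24 h than at 12 h, Myc by less than 1.2-fold with a loess curve removed. The same held for P3h2 below. Of 37 matrix genes 3 were lower and none higher at that size, namely Eln above, Fbln1, a fibulin, with 884, 950.5 and 744, and P3h2, a collagen prolyl hydroxylase, with 209, 295 and 243. Of 22 matrix protease and inhibitor genes 2 were higher and none lower. The stromelysin gene Mmp3 had 2695, 4065 and 5131 and Plat, the tissue plasminogen activator, 1257, 911 and 1104. The Wnt antagonist genes Sfrp4 and Wif1 had 949, 1631 and 2013 and 85.4, 191 and 232, the 2 of 24 Wnt pathway genes that were 1.2-fold higher, with none lower. With averaged probe sets Fbln1 (-0.21) and Plat (0.20) were under 1.2-fold. Mmp3, Sfrp4 and Wif1 were highest at 24 h of the 3 arrays, and Plat was low at 12 h.

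Over the metabolic and housekeeping lists single members were called, at shares to be read against the 3.58% of all genes that were 1.2-fold higher and the 3.47% lower. No member was 1.2-fold apart among 20 sterol synthesis genes, 24 oxidative phosphorylation genes, 24 chaperone genes, 18 heat shock genes, 20 NRF2 genes, 23 autophagy and lysosome genes, 17 contractile genes or 12 reference genes, and none among 16 ERK feedback genes, 5 histone genes or 4 endothelial genes. Of 17 genes of glucose uptake and glycolysis 1 was lower, Pfkfb3, which makes an activator of phosphofructokinase, with 274, 294 and 237. Of 17 hypoxia genes Adm, the peptide adrenomedullin, was lower with 2541, 2896 and 2383. Acsl4, which activates arachidonic acid, was the higher one of 21 fatty acid synthesis genes with 546, 430.5 and 547. Of 25 p53 targets 2 were lower, Pidd1 with 214, 213 and 174 and the death receptor gene Tnfrsf10b with 104, 114 and 93.5. Under 1.2-fold with averaged probe sets were Pfkfb3 (-0.17), Acsl4 (0.09) and Tnfrsf10b (-0.18), and with a loess curve removed Adm. With suffixed probe sets left out none of the p53 targets was 1.2-fold lower. Nop58 above was the sole one of 28 ribosome biogenesis genes at 1.2-fold, against a list median of -0.08. Of 24 oxidative phosphorylation genes 21 were lower by any amount, against 58.4% of all genes. Their median was -0.04, beside -0.03 over all genes.

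Of 15 glucocorticoid-responsive genes 3 were 1.2-fold higher and 1 lower, against 3.58% and 3.47% of all genes. Klf9, a zinc finger factor, had 890.1, 1077 and 1363 and Fkbp5, a chaperone of the glucocorticoid receptor, 217, 157 and 195. The metallothionein gene Mt1 had 3916, 2892 and 3474, and the lower one was Cebpd. With averaged probe sets no member kept was 1.2-fold higher or lower, and with suffixed ones left out 1 was higher and 1 lower. Of 28 inflammatory genes 2 were higher and 3 lower, beside the same shares of all genes. Tnfaip6, a hyaluronan-binding protein, had 341, 256 and 326 and was higher like Ccl11. Tnfaip3, a brake on NF-kappaB, had 198, 228 and 185, the cytokine gene Il11 123, 136 and 112 and Lif 96.2, 108 and 89.5, and were lower. With averaged probe sets 1 inflammatory gene was 1.2-fold lower.

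**Figure D5:**
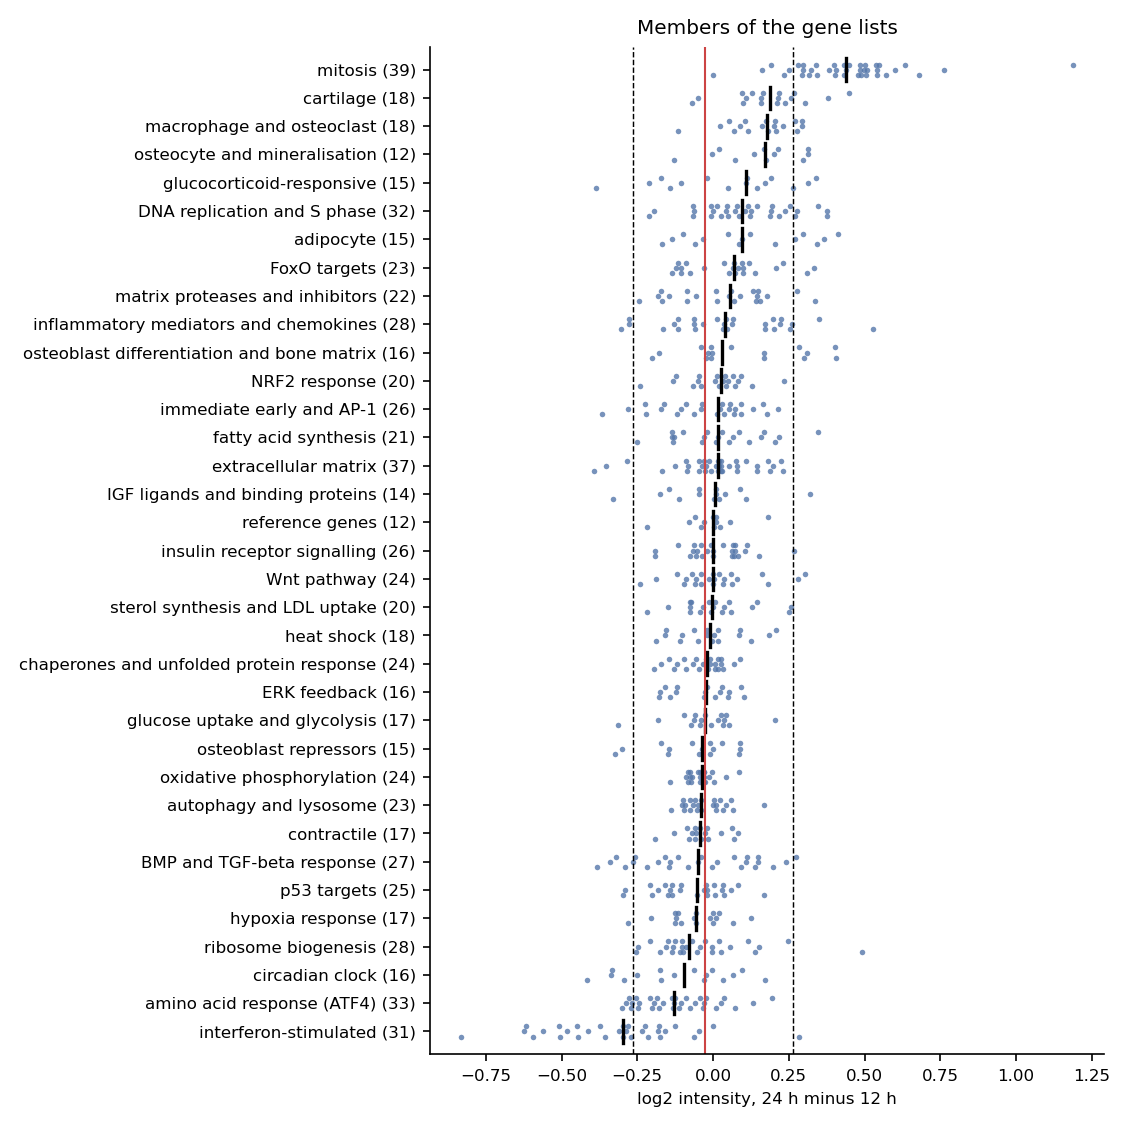
Log2 intensity at 24 h minus 12 h (horizontal axis) for the members of each gene list with at least 10 genes above the limit, 1 point per gene, with the number of genes in brackets, the list median as a black bar, the median of all genes (-0.03) as a red line and 1.2-fold as dashed lines. The mitosis list has the highest median (0.44) and the interferon-stimulated list the lowest (-0.30).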

How the data were processed

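RNA of 4 samples was hybridised to Affymetrix 3′ arrays, 1 array per group, per the labels' protocols. The authors deposited a linear intensity for every probe set on every array. RMA, named by the submitters' processing notes, subtracts background, equalises the arrays and fits each probe set in log units. No source used here gives its software or version. RMA compresses differences of dim probe sets. Of 45101 probe sets 64 were controls, and the platform annotation given for this work, which can be old, named 1 symbol for 34945, several for 932 and none for 9160. Log2 was taken, and 24 h minus 12 h computed. With 1 array per group there is no test.

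Folds of 1.5 (single genes), 1.3 at each step (courses over the insulin arrays) and 1.2 (lists) were used. There were 37 gene lists with 914 entries, 25 of them renamed through RefSeq synonyms, and 72 had no probe set with a single symbol and were not analysed here. Members, lists and thresholds were chosen with earlier results of these data known. Named were the 15 largest differences in each direction, 10 per course, up to 4 per list past 1.2-fold and a fixed set, predicted transcripts passed over; other genes named illustrate a list and were chosen after their values were seen. Promoters came from RefSeq, GRCm38.p6, and were chosen after the values were seen. The counting was tested on simulated data. Alternatives were other folds, brightness filters, scalings and probe set rules. Python 3.11.15, numpy 2.4.6, pandas 2.3.3, statsmodels 0.14.6 and matplotlib 3.10.9 were used.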

Additional observations from a re-analysis of the deposited data

How the results depend on the processing

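No paired analysis was possible because each group holds 1 array. The counts of genes 1.5-fold higher and lower at 24 h, 12 and 12, were 108 and 84 at 1.3-fold, 1 and 0 at 2-fold, 24 and 26 without a brightness filter, and 6 and 5 with the filter at the 75th percentile. Averaging a gene's probe sets gave 7 higher genes, and removal of a loess curve left 7 lower. The counts of genes high and low at 12 h, 30 and 64, were 146 and 164 at 1.2-fold, 2 and 9 at 1.5-fold, 9 and 28 with the stricter filter, and 19 and 34 with averaged probe sets. Without a filter 70 were high at 12 h. Genes higher at both steps, 10, numbered 81 at 1.2-fold, 0 at 1.5-fold, 4 with the stricter filter and 5 with averaged probe sets, and genes lower at both steps 4 at 1.2-fold. Median centring, quantile normalization and the other filters and probe set rules left these 6 counts within 1.5 times. Of mitosis genes 34 were 1.2-fold higher, against 17 with the stricter filter, which keeps fewer genes, and 21 with averaged probe sets. The averages also take in probe sets below the brightness limit. Of 109 named genes at least 1.2-fold apart 27 fell under it with averaged probe sets, 8 with suffixed ones left out and 6 with a loess curve removed. Over these alternatives the mitosis median ran from 0.32 to 0.48 and the interferon median from -0.36 to -0.27. The adipocyte median ran from -0.05 to 0.14.

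With the 6 h array in place of the 12 h array, an alternative added after the data were seen, 196 genes stood 1.5-fold higher and 14 lower on the 24 h array, and the mitosis median turned to -0.11. The cause was not tested. Depth is limited by signal over background and by 1 array per time.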
